A study of Homo sapiens with 6 samples.

Results

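Expression of BHMT2 (betaine-homocysteine S-methyltransferase 2) and of 9 further genes of the methionine-homocysteine cycle was followed in 786-O cells adapted to copper. 786-O is a long-used human cell line from a clear cell renal carcinoma. BHMT2 was selected on its CPM (counts scaled to library size), which was higher in every copper library than in any control library, so its copper difference is given as a description with no test. BHMT, MTR, MTRR, MAT2A, MAT2B, AHCY, CBS, CTH and MTAP were taken as its pathway. These 10 genes are among 25987 with a symbol in the count table, and 9 of the 10 had enough counts to be tested. BHMT did not.

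Both groups were wild-type 786-O cells grown in DMEM/F12 medium with 10% serum. The 3 copper cultures received serum that had been incubated with CuSO4 so that its proteins bound the metal, and the 3 control cultures received serum handled alike without CuSO4. The dose is 30 uM in the description of the series but is labelled 30, 31 and 32 uM for copper replicates 1, 2 and 3, which were treated as 1 group. No duration of the adaptation is used here, and only 1 line was studied. The labels do not say how separate the cultures were, so p-values measure the spread between these 6 libraries, which may be partly technical.

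Homocysteine stands at a branch point of sulfur metabolism. It can be methylated back to methionine, either with methylfolate by the cobalamin enzyme methionine synthase (MTR) or with betaine or S-methylmethionine by the BHMT enzymes, or it can be drawn off to cysteine by transsulfuration. Methionine adenosyltransferase turns methionine into S-adenosylmethionine (SAM), the methyl donor of most methyltransferases, which leaves S-adenosylhomocysteine (SAH), and AHCY splits that back to homocysteine. In the body the BHMT enzymes are known mainly from liver and the proximal tubule of the kidney.

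Libraries held 16301772 to 25079913 counts. Replicate 3 stood apart from replicates 1 and 2 in both groups: the first principal component, with 64.6% of the variance, placed copper replicate 3 at 35.7 and control replicate 3 at 13.6, against -14.6 to -9.92 for the other 4 libraries. The second component, with 17.0%, placed the copper libraries at 6.25 to 10.4 and the control libraries at -15.7 to -3.53. A gene was called when its adjusted p was under 0.05: edgeR's quasi-likelihood test called 0 of 12944 genes for copper, of which 455 had an unadjusted p under that value. Adding the replicate number as a block gave 22 calls, 16 of them higher in copper, and DESeq2 lacking that block gave 27. Of the lineage markers, PAX8, a renal transcription factor, was at 123 to 147 CPM, whereas CA9, often high in clear cell carcinoma, had at most 2 counts per library. Of 24 genes of the proximal tubule only 5 were high enough to be tested. Markers of blood, endothelium, liver, stroma and other epithelium (10 genes) summed to 4.999 to 6.58 CPM in copper and 5.59 to 10.1 CPM in control. The most abundant of these, the collagen gene COL1A1, was at 2.07 to 4.48 CPM in copper and 3.90 to 8.68 CPM in control, and the epithelial gene EPCAM at 1.403 to 1.71 against 0.838 to 1.21 CPM. Of the renal line markers, PAX2 (8.23 to 9.01 against 5.63 to 7.30 CPM) and VCAM1 (42.6 to 61.2 against 29.3 to 37.4 CPM) also had copper wholly above control. The same held for 5.45% of all tested genes. Groups overlapped for the other tested renal line markers. Their log2 fold changes were -0.06 for PAX8, 0.0041 for VIM, -0.07 for KRT8, -0.02 for KRT18 and -0.23 for CDH6. COL1A1, EPCAM, PAX2 and VCAM1 were not called (edgeR adjusted p 1.00), and their part in the BHMT2 difference was not tested.

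BHMT2 encodes a zinc-dependent enzyme known to methylate homocysteine with S-methylmethionine as donor. It lies on chromosome 5 of GRCh38 at positions 79069767 to 79090069, plus strand (Entrez 23743). Its level was 33.5, 33.9 and 33.7 CPM in copper replicates 1, 2 and 3, and 19.1, 17.3 and 18.4 CPM in control replicates 1, 2 and 3. Every copper library was therefore above every control library, which was also so for 5.45% of all tested genes, and neither replicate 3 stood out. The means were 33.7 ± 0.232 CPM in copper and 18.3 ± 0.928 CPM in control (SD, n = 3), a ratio of 1.84. On the log2 scale copper exceeded control by 0.80, 0.97 and 0.86 in replicates 1, 2 and 3. The spread among the copper libraries was smaller than counting alone would give, which can follow from the choice of BHMT2 as a steady gene. The reads behind each library were 549, 605 and 624 in copper and 476, 353 and 352 in control. They carry a Poisson SD of 1.39 CPM in copper and 0.927 CPM in control on average.

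The sequence around the BHMT2 start is shown because it also holds the start of DMGDH, a gene on the opposite strand whose level is described further on. It is the RefSeq window around the annotated start, chr5:79069517-79069816, plus strand, build GRCh38.p14, and capitals mark the 92 bases between the annotated 5′ ends of the 2 genes.
BHMT2 start region: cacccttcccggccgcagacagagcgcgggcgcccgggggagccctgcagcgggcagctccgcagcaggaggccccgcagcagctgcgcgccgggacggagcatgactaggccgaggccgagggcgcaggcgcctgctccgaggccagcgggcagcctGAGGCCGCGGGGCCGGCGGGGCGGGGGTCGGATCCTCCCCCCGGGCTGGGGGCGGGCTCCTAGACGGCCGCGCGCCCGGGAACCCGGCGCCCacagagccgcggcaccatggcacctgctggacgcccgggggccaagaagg
This window was 80.0% G or C and held 38 CpG dinucleotides. Read on both strands, it had 1 match to TGACNNNGC, the core of the antioxidant response element, which 13.3% of 34943 RefSeq start windows of this length also hold. It had 2 matches to TGCGCNC, a form of the metal response element core present in 19.9% of windows. No match was found to the other form, TGCACNC (12.1% of windows), or to TGATGNAA, the core of the amino acid response element (3.62%). The motifs were not limited to BHMT2: CTH had 2 matches to TGCGCNC, DMGDH and both MTR windows 1 each, and 1 of the CBS windows 1 match to it and 1 to TGACNNNGC. The DMGDH and BHMT2 windows share 192 bases, and the DMGDH match lies in that stretch, so it is also counted for BHMT2. The windows of BHMT, MAT2A, MAT2B, AHCY and MTAP held none of the 4 motifs. These are matches of letters only.

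**Figure D1:**
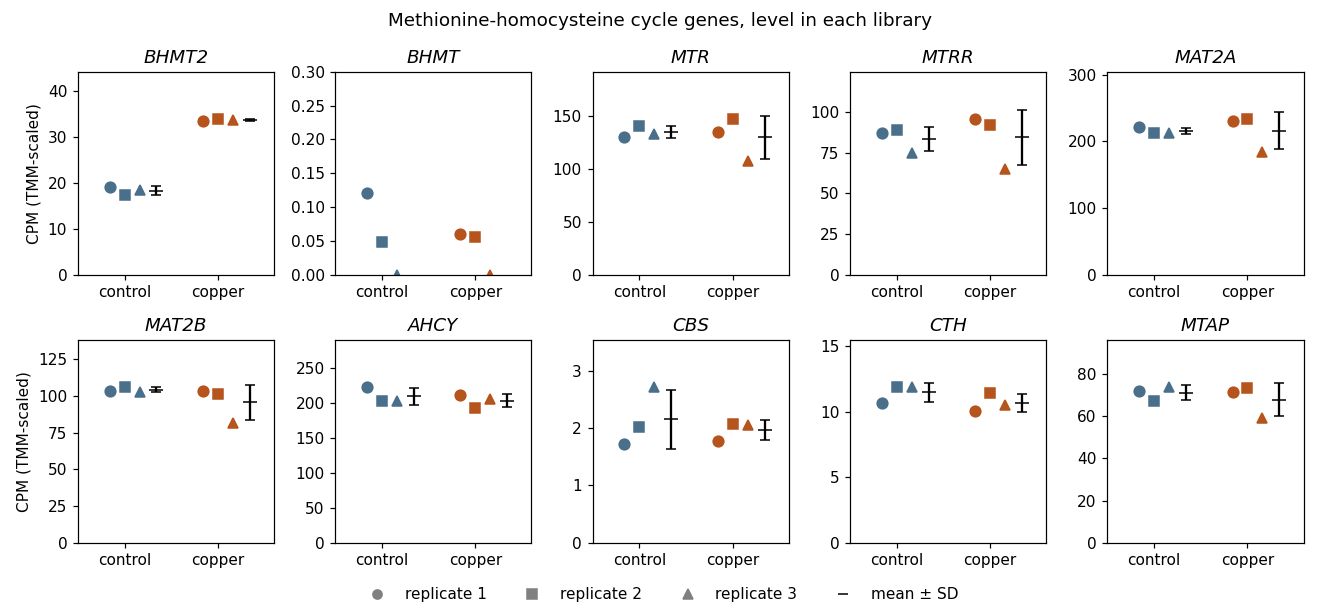
Level of each of the 10 genes in CPM (vertical axes from 0, scaled per gene) in the 3 control and 3 copper libraries, with the mean ± SD beside the points except for BHMT, which had at most 3 counts per library. Of the 10, BHMT2 alone had all copper libraries above all control libraries. It was picked for that separation, which 5.45% of all tested genes had. In MTR, MTRR, MAT2A, MAT2B and MTAP the lowest point is copper replicate 3, the lowest library for 33.8% of all genes.

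Among the other genes that return homocysteine to methionine, BHMT was near 0 reads, and MTR and MTRR were not called and had overlapping groups. BHMT, the betaine-dependent paralog of BHMT2 and its neighbour at 79111809 to 79132288, had 1, 1 and 0 reads in copper replicates 1 to 3 and 3, 1 and 0 in control, so no fold can be given. MTR (chromosome 1, 236795281 to 236903981) was at 134, 147 and 107 CPM in copper replicates 1, 2 and 3 and at 130, 140 and 132 CPM in control. Its log2 fold change was -0.05, with a 95% interval from -0.35 to 0.25 (edgeR adjusted p 1.00). MTRR (chromosome 5, 7869148 to 7901113), the reductase that reactivates MTR, was at 95.9, 92.3 and 65.0 CPM in copper and 86.9, 88.9 and 75.03 CPM in control. Replicate 3 was the lowest library of MTRR in both groups. The log2 fold change was 0.01, with an interval from -0.36 to 0.39 (edgeR adjusted p 1.00).

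SAM synthesis and SAH removal were carried by abundant transcripts with overlapping groups. MAT2A (chromosome 2, 85539168 to 85545281), the catalytic subunit of the adenosyltransferase outside liver, was at 231, 234 and 184 CPM in copper and 221, 213 and 213 CPM in control. Copper replicate 3 was the low library, and the log2 fold change was 0.0032, with an interval from -0.26 to 0.27. MAT2B (chromosome 5, 163503064 to 163519353), the regulatory subunit, was at 103, 102 and 81.9 CPM in copper and 104, 107 and 103 CPM in control, a log2 fold change of -0.13, with an interval from -0.39 to 0.13, and -0.03 without copper replicate 3. AHCY (chromosome 20, 34280268 to 34302990), which splits SAH, was at 212, 193 and 205 CPM in copper and 224, 203 and 203 CPM in control, a log2 fold change of -0.04 with an interval from -0.26 to 0.17. None of the 3 was called (edgeR adjusted p 1.00). MAT1A, the liver form of the catalytic subunit, had 1, 1 and 2 reads in copper and 0, 0 and 1 in control. AHCYL1, an AHCY-like protein, had a log2 fold change of -0.0092 (SE 0.08). AHCYL2, its close relative, was at 21.0, 21.3 and 16.2 CPM in copper and 27.2, 24.9 and 24.0 CPM in control. All copper libraries of AHCYL2 were below all control libraries, with a log2 fold change of -0.38 (SE 0.13), but it was not called: the adjusted p from edgeR was 1.00, or 0.336 once the block was added.

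Transsulfuration and salvage were likewise without a called change. CBS, which joins homocysteine to serine, had 29, 37 and 38 reads in copper and 43, 41 and 52 in control, or 1.77 to 2.08 CPM against 1.73 to 2.72 CPM. Its log2 fold change was -0.12, and the low counts leave a wide interval from -0.68 to 0.44. The table places CBS on chromosome 21 at 6444869 to 6468055, while RefSeq GRCh38.p14 has it at 43053191 to 43076873, and a near-identical copy, CBSL, is listed at nearly the same place. Reads of the 2 copies may be split or lost, so the CBS level is uncertain. CTH (chromosome 1, 70411218 to 70439851), which releases cysteine from cystathionine, was at 10.1, 11.4 and 10.5 CPM in copper and 10.7, 11.9 and 11.9 CPM in control. For CTH the log2 fold change was -0.11, with an interval from -0.40 to 0.18. MTAP (chromosome 9, 21802636 to 21867081), which recovers methylthioadenosine for methionine salvage, was at 71.4, 73.3 and 59.0 CPM in copper and 72.0, 67.3 and 74.2 CPM in control. Copper replicate 3 was again the lowest, and the log2 fold change was -0.07, with an interval from -0.33 to 0.19. The adjusted p of these 3 genes was 1.00 in edgeR's test.

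Of the 8 tested genes other than BHMT2, 0 were called by edgeR without the block, with it, or by DESeq2. The share called over all genes was 0% without the block, 0.170% with it (0.124% called higher) and 0.209% by DESeq2. None of the 8 had an unadjusted p under 0.05 in any of these fits, against 3.52% of all genes without the block and 8.41% with it. Groups overlapped for all 8, while 10.8% of all tested genes had groups that did not (5.45% with copper above and 5.35% with copper below). Their log2 fold changes ran from -0.13 to 0.01 with a median of -0.06, beside a median of 0.0052 over all genes.

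Among the 8 genes, the median copper difference was 0.01 and 0.05 in replicates 1 and 2 but -0.26 in replicate 3. Copper replicate 3 held the lowest value of 5 of the 8 (MTR, MTRR, MAT2A, MAT2B and MTAP), and it was the lowest library for 33.8% of all genes and the highest for 33.2%. With replicates 1 and 2 alone, edgeR called 0 of the 8, against 0.856% of all genes. Copper then lay wholly above control for MTRR and MAT2A and wholly below for MAT2B, a count of 3 of 8 where 44.1% of all genes did not overlap. In BHMT2, copper replicate 3 differed from the mean of copper replicates 1 and 2 by -0.0012 on the log2 scale, and its control replicate 3 by 0.02, values that follow from its choice as a steady gene. The same shifts were 0.02 and -0.07 for AHCY and -0.03 and 0.08 for CTH, and -0.53 and -0.23 for MTRR.

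**Figure D2:**
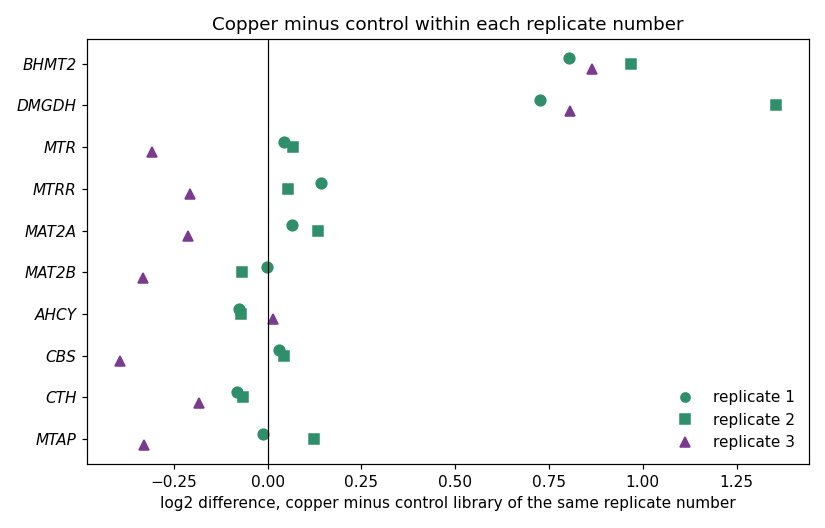
Log2 difference between the copper and control libraries of the same replicate number, with 1 marker per replicate, for BHMT2, DMGDH and the 8 other tested members. BHMT2 and DMGDH lie to the right of 0 in all 3 replicates, while replicate 3 lies left of 0 for 7 of the other 8, AHCY being the exception.

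A test of the replicate number, with group as a further term, was read for the 8 members other than BHMT2, which was picked as steady across libraries. edgeR called 0 of the 8, beside 6.46% of all genes. MTRR had the smallest adjusted p among them, 0.110, and was the only one with an unadjusted p under 0.05. DESeq2's likelihood ratio test, which called 11.2% of all genes, also called 0 of the 8.

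Compared per kilobase of the longest GENCODE 29 transcript, the level of BHMT2 held place 5 among the 10 genes. AHCY (87.3 CPM per kilobase over all 6 libraries) and MAT2A (76.7) were highest and their ranges overlapped. MAT2B (29.3) and MTRR (25.7) followed, again with overlapping ranges. BHMT2 (12.7) and MTR (12.5) came next, then MTAP (9.20), CTH (5.41), CBS (0.775) and BHMT (0.0191). By longest transcript, the order of BHMT2 and MTR was opposite in the 2 groups. MTR averaged 12.3 CPM per kilobase in copper and 12.8 in control. The reversal therefore restates the copper difference for which BHMT2 was picked. In copper BHMT2 was at 16.3, 16.6 and 16.4 and MTR at 12.7, 13.97 and 10.2 CPM per kilobase in replicates 1, 2 and 3. In control BHMT2 was at 9.34, 8.44 and 8.997 and MTR at 12.4, 13.3 and 12.6. This order rests on the transcript length assumed. With median transcript lengths BHMT2 was above MTR in every library of both groups, so the reversal was not seen. BHMT2 then averaged 45.0 and MTR 25.2 CPM per kilobase over all libraries.

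**Figure D3:**
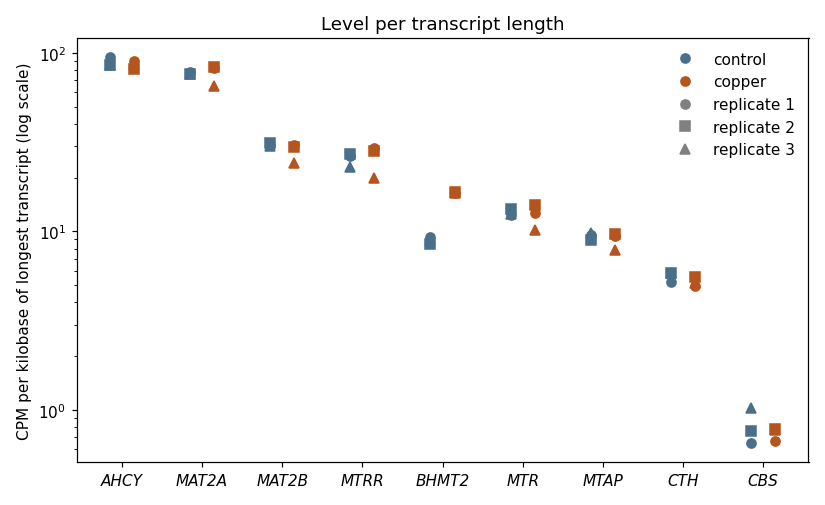
CPM per kilobase of longest transcript on a log axis for the 9 members with reads in every library, with control and copper libraries side by side. By this length BHMT2 moves from below MTR in control (8.44 to 9.34) to above it in copper (16.3 to 16.6), and the other genes keep similar levels in both groups. With median transcript lengths BHMT2 is above MTR in both groups. The move restates the copper difference for which BHMT2 was picked.

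DMGDH, dimethylglycine dehydrogenase, is known to oxidise the dimethylglycine that BHMT leaves from betaine. It lies head to head with BHMT2 on the minus strand, at 78997564 to 79069674, so that 92 bases part the 2 genes. DMGDH had 60, 90 and 54 reads in copper and 54, 39 and 31 in control, or 3.66, 5.05 and 2.91 CPM against 2.17, 1.91 and 1.62 CPM. Every copper library was above every control library at this low level. The log2 fold change was 0.98, with an interval from 0.38 to 1.59, close in size to that of BHMT2. DMGDH was not called, with an adjusted p of 1.00 from edgeR, 0.158 from edgeR's blocked fit and 0.297 from DESeq2. In replicates 1, 2 and 3 the difference was 0.73, 1.35 and 0.80. For every 100 BHMT2 reads there were 8.65 to 14.9 DMGDH reads in copper libraries and 8.81 to 11.3 in control libraries. In GENCODE 29, exons of DMGDH and BHMT2 share 0 bases, but some DMGDH transcripts start as far as 79236038, beyond BHMT2, and share 239 exonic bases with BHMT. Whether the authors' counting used strand is not given in the sources used here, so reads of one gene counted for the other were not tested.

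The other tested genes within 500000 bases of BHMT2 all had negative values. The log2 fold change was -0.10 (SE 0.11) for LHFPL2, -0.23 (SE 0.13) for the lysosomal arylsulfatase ARSB, -0.32 (SE 0.19) for the actin regulator JMY and -0.21 (SE 0.22) for the synaptic scaffold HOMER1. Of these 4 only JMY had groups that did not overlap, at 5.07 to 7.56 CPM in copper and 7.60 to 9.17 CPM in control, a separation that 10.8% of all tested genes had. Without copper replicate 3 the log2 fold change was -0.15 for JMY, -0.12 for ARSB, -0.02 for LHFPL2 and 0.0094 for HOMER1. None of the 4 was called (edgeR adjusted p 1.00). Near MTAP, 2 of 13 listed neighbours could be tested, KLHL9 (log2 fold change -0.13, SE 0.17) and MIR31HG (-0.15, SE 0.24). The next protein-coding genes beyond MTAP were close to 0 reads in both groups: CDKN2A, which encodes cell cycle inhibitors, had 0 to 2 reads per library and CDKN2B likewise 0 to 2, beside 1094 to 1791 for MTAP. The other neighbours with reads were the interferon genes IFNA1, IFNA2, IFNA5, IFNA8 and IFNA13 at 0 to 2 reads, IFNE at 5 to 17 and the antisense RNA CDKN2B-AS1 at 2 to 6.

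**Figure D4:**
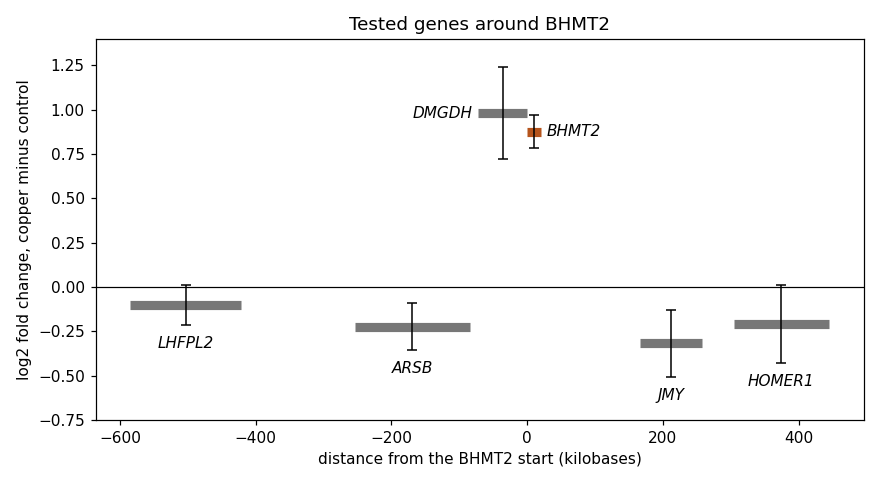
Log2 fold change (copper minus control, error bars SE) of the 6 tested genes around BHMT2, each drawn as a bar over its span in kilobases from the BHMT2 start. BHMT2 (0.88) and DMGDH (0.98) are above 0 and the 4 genes further away lie between -0.32 and -0.10.

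A list of 65 genes that feed or drain the cycle was read from the same fit, and 56 of them could be tested. Of these, 31 had a positive and 25 a negative log2 fold change, with a median of 0.01 beside 0.0052 over all genes. edgeR called 0 of 56 with or without the block, and DESeq2 called 0. Without the block 6 of 56 (10.7%) had an unadjusted p under 0.05, beside 3.52% of all genes, and groups did not overlap for 10 of 56 (17.9%), beside 10.8%. HNMT is in both counts and passed the filter on low counts through its copper libraries, so the shares are a description only. The 6 were DMGDH, TCN2, SQOR, GSS and HNMT, with higher values in copper, and AHCYL2, with lower values. All had an adjusted p of 1.00 in edgeR, and no test compared the list with other genes.

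By step, the choline and betaine genes held both the highest and the lowest log2 fold change of the list, DMGDH and SARDH. Beside DMGDH, SARDH, which oxidises sarcosine to glycine, was at 9.81, 7.96 and 14.2 CPM in copper and 13.4, 14.7 and 15.5 CPM in control, with a log2 fold change of -0.44 (SE 0.21, edgeR adjusted p 1.00). Its groups overlapped only through copper replicate 3, and in replicates 1 and 2 alone edgeR called it at -0.66 (adjusted p 0.0415). That fit leaves out the overlapping library, and SARDH was named after its values were seen, so the call is a description only. CHDH, which makes betaine from choline, was among the genes too low to test. In cobalamin delivery, the carrier TCN2 was at 1.89, 2.80 and 3.18 CPM in copper and 1.41, 1.67 and 1.41 CPM in control, a log2 fold change of 0.78 (SE 0.26).

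Among the sulfur steps after cystathionine, 8 of 10 tested genes had positive values, with a median of 0.17. Over all tested genes 6657 of 12944 were positive. Some of the 8 were near 0, such as CSAD (0.0072, SE 0.29) and ETHE1 (0.05, SE 0.20). SQOR, which oxidises hydrogen sulfide in mitochondria, was at 16.6, 21.1 and 32.8 CPM in copper and 14.7, 14.5 and 16.03 CPM in control, a log2 fold change of 0.64 (SE 0.24). Its difference was 0.18, 0.54 and 1.03 in replicates 1, 2 and 3, so copper replicate 3 carried the most, and without that library the log2 fold change was 0.32. GCLM, the modifier subunit of the enzyme that starts glutathione synthesis, was at 257, 217 and 142 CPM in copper and 160, 147 and 142 CPM in control. The groups overlapped through replicate 3, and over all libraries the log2 fold change was 0.46, with an interval from -0.01 to 0.93 (edgeR adjusted p 1.00). With the replicate block GCLM was at 0.42 (SE 0.13) and was not called (edgeR adjusted p 0.468). It was called in replicates 1 and 2 alone at 0.63 (adjusted p 0.00654 in edgeR). GCLM and SARDH were the 2 of 56 called in that fit, beside 0.856% of all genes. The fit leaves out the replicate through which their groups overlap. Both genes were named after their values were seen, so these calls are a description only.

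The methyltransferases, polyamine genes and methionine carriers had medians of 0.0077, 0.01 and 0.09. HNMT, which methylates histamine with SAM, had a log2 fold change of 0.98 (SE 0.40) at levels of 0.701 to 1.22 CPM in copper and 0.262 to 0.588 CPM in control. SMS, spermine synthase, had one of -0.10 (SE 0.09) and SLC38A2, a carrier of small neutral amino acids, one of -0.21 (SE 0.10). In the test of the replicate number 5 of the 12 salvage and polyamine genes were called (AMD1, ODC1, SAT1, SMOX and MRI1), where 6.46% of all genes were. The list of 56 had 7 such calls. SMOX, spermine oxidase, was at 36.5, 39.3 and 84.4 CPM in copper replicates 1, 2 and 3 and 38.1, 34.6 and 64.0 CPM in control, with an adjusted p of 0.0178 in edgeR. The 5 tested proximal tubule genes had a median of 0.05, with 0 called and 0 at an unadjusted p under 0.05. Of these, MIOX, the renal inositol oxygenase, had the smallest p (log2 fold change 0.43, SE 0.38). It had 8 to 19 reads, passed the filter on low counts through its copper libraries, and was at 0.20 without copper replicate 3 and 0.69 without control replicate 3.

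**Figure D5:**
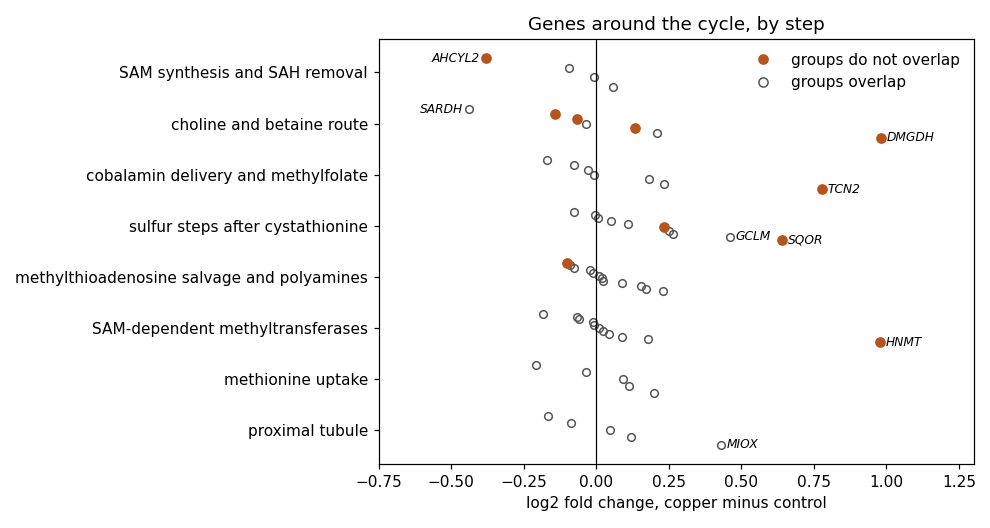
Log2 fold change (copper minus control) of the 56 tested genes around the cycle and of 5 proximal tubule genes, by step, with filled points where the copper and control libraries do not overlap. DMGDH (0.98), HNMT (0.98), TCN2 (0.78) and SQOR (0.64) lie furthest to the right.

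Over the 6 libraries, the genes whose log2 CPM followed BHMT2 most closely among 10290 with a mean of at least 5 CPM were PYURF (Pearson r 0.991), the cell cycle inhibitor CDKN1A (0.990), the oxidoreductase AIFM2 (0.987), the lactate dehydrogenase subunit LDHB (0.987) and IER5 (0.985). The most opposite were HDLBP (-0.996), the mitotic kinesin KIF20A (-0.986), ERF (-0.981), NDE1 (-0.980) and PHACTR4 (-0.978). The 6 points fall into the copper and control groups, so these values mainly mark genes with tight, separated groups. The sizes differed: the log2 fold change was 0.20 for PYURF, 0.43 for CDKN1A, 0.64 for AIFM2, 0.23 for LDHB, 0.20 for IER5, -0.17 for HDLBP and -0.30 for KIF20A. Within the cycle, r with BHMT2 was between -0.63 (CTH) and -0.0094 (MAT2A). DMGDH, at 0.891, was exceeded by 91 of the 10290 genes, a set that its own mean of under 5 CPM keeps it out of.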

How the data were processed

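Total RNA of each culture was sequenced after a strand-specific NEBNext Ultra II preparation, per the labels' protocols. Raw gene counts of the 6 libraries were deposited by the authors as 1 table (25992 genes, 5 without a symbol, which hold 0.000814% of counts and were left out). The submitters' processing notes name STAR, FastQC, edgeR and GRCh38, without roles or versions. The counting program, its strand setting and its treatment of multi-mapping reads are not given in the sources used here. Positions are those of the table with 1 added to its starts. Apart from CBS, the larger differences from RefSeq GRCh38.p14 were in MTRR, AHCY and MTAP. RefSeq starts differ by -18289 bases for MTRR and -48287 for AHCY. RefSeq ends differ by 8846 bases for AHCY and 74034 for MTAP.

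The model was fitted to the deposited counts by edgeR 4.0.16 under R 4.3.3 (filterByExpr with minimum count 10 and minimum total 15, TMM scaling, robust quasi-likelihood test, group as the term, Benjamini-Hochberg adjustment over 12944 genes, threshold 0.05). The prior count for log2 fold changes was 2, and 95% intervals came from the SE and degrees of freedom of that fit. The intervals are per gene and, unlike the adjusted p, take no account of the number of genes tested. CPM are scaled by TMM library size. DESeq2 1.42.0 was an alternative. The script was tested on simulated counts.

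The members and lists were chosen with earlier results of these data known. Named were all members, MAT1A, AHCYL1, AHCYL2, DMGDH, the gene with the smallest p in each list, neighbours within 500000 bases and the 5 genes most like and most opposite to BHMT2. GSS, SARDH, GCLM, CHDH, SMOX and the other polyamine genes called by replicate number were chosen after their values were seen. Neighbours with few reads are given by their range of reads.

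Both groups carry replicate numbers 1 to 3, which the labels do not tie to a day or batch. Deviations from the group mean correlated between same-numbered libraries at 0.46, 0.40 and 0.65 over the tested genes, each over the required 0.1. The numbers were therefore taken to pair the samples in the fit with the block, while the main fit leaves the pairing out. Copper replicate 1 with control replicate 2 (0.32) and copper replicate 2 with control replicate 1 (0.27) also passed 0.1. Passing 0.1 therefore does not settle the pairing of replicates 1 and 2. Fold changes, SEs and intervals are from the fit without the block unless the block is named. With the block the SE was smaller for every tested member. For MTRR it was 0.160 without the block and 0.0970 with it, and for MTAP 0.112 and 0.106. The smallest chi-square between libraries of a group was 5.04 per degree of freedom, so each counted as 1 replicate.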

Additional observations from a re-analysis of the deposited data

How the results depend on the processing

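Alternatives were RLE and total-count scaling, no filter, DESeq2, the replicate block, each library left out, replicates 1 and 2 alone, and a smaller prior count. BHMT2 stayed between 0.84 and 0.91 on the log2 scale under all 13 of them. All 13 reuse the libraries on which BHMT2 was picked as a steady gene, so this range is a description only. Of the other 8 tested members 0 were called under any, and their 104 values kept direction in 87 and changed sign in 17, all near 0. With no filter MTRR was at -0.00733 and MAT2A at -0.0165, and with the replicate block at -0.00152 and -0.00462. In replicates 1 and 2 alone MTR was at 0.0567, CBS at 0.0471, MTAP at 0.0539 and AHCYL1 at 0.0113, and AHCYL1 was at 0.0181 with total counts. Leaving out 1 replicate gave ranges of -0.160 to 0.0660 for MTR, -0.0908 to 0.169 for MTRR, -0.0608 to 0.107 for MAT2A, -0.188 to -0.0262 for MAT2B, -0.129 to 0.0240 for MTAP, -0.257 to 0.0718 for CBS, -0.0346 to 0.0102 for AHCYL1, -0.349 to 0.00937 for HOMER1 and -0.229 to 0.0411 for KLHL9. The highest values were without copper replicate 3, except for CBS, where it was without control replicate 3. The cause was not tested.

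The count of genes called, 0 in the report, came to 22 under the replicate block, 27 under DESeq2, 12 when no filter was applied, 111 in replicates 1 and 2 alone and 0 to 15 with 1 replicate left out, 15 only without copper replicate 3. The block changed no call among the 8 members or the list around the cycle. The median of the list around the cycle was 0.0426 with total counts and -0.00273 to 0.0698 with 1 replicate left out, the ends being without copper replicate 3 and without copper replicate 2. Members with separated groups, 0 of 8 in the report, were 3 in replicates 1 and 2 alone, a setting chosen after seeing the data. DESeq2 called CDKN1A and AIFM2 (adjusted p 0.00221 for both), and replicates 1 and 2 alone called CDKN1A, AIFM2 and KIF20A. The edgeR adjusted p was 0.710 for CDKN1A and 0.401 for AIFM2 without the block, and 0.134 and 0.0755 with it. These genes were picked for following or opposing BHMT2 across the same 2 groups, so the calls are a description only.

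The test of the replicate number called 836 genes in the report, 3109 with no filter and 1450 with DESeq2. With no filter it called 1 member, MTRR (adjusted p 0.0198), and 0 otherwise. BHMT2 was in place 5 per length, 6 with median lengths and 7 in control alone. Of the 10 genes most like or opposite to BHMT2, 8 were shared with a minimum of 1 CPM and 0 with Spearman correlation, where the 6 and 4 genes at a rho of 1 and -1 took the places. Low counts limit CBS, DMGDH, TCN2, HNMT and MIOX.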
